A study of Mus musculus with 16 samples.

Results

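The Hox cluster genes were taken as the non-control probes whose transcript accession maps to a RefSeq mouse symbol made of Hox, a cluster letter a to d and a number. The rule found 39 genes on 46 probes, of 45616 genes or features on 56605 probes on the whole array, and no detection filter was set. The paralog number, 1 to 13, gives a gene's place within its cluster. The 39 genes comprise 11 of the Hoxa cluster on chromosome 6, 10 of Hoxb on chromosome 11, 9 of Hoxc on chromosome 15 and 9 of Hoxd on chromosome 2.

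The study asked what sperm nuclei tolerate, by way of the brains of the young they produced. Total RNA of the whole brain of C57BL/6 neonates at postnatal day 1 was hybridised to single-colour Agilent arrays, 1 animal an array and 4 animals a group. The fresh group came from fresh spermatozoa and the freeze-dried group from freeze-dried spermatozoa. The irradiated group came from freeze-dried spermatozoa given 5 Gy of X-rays, and the heated group from freeze-dried spermatozoa held at 95 °C for 1 h. No neonate was itself treated, and the labels name no transgene or mutant allele. Arrays are named here by group and replicate number, fresh 1 for example. Whether animals shared a litter is not given in the labels, and the p-values treat them as independent.

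Hox genes encode homeodomain transcription factors that give cells along the body axis their position. Within a cluster they lie in the order in which they are used, so that genes of low paralog number are active up to the hindbrain and those of higher number begin further back, in the caudal medulla and the spinal cord, while the forebrain and midbrain lack them. Their proteins bind DNA together with TALE cofactors of the Pbx and Meis families, and retinoic acid and Polycomb proteins set where each gene is on.

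Promoters of 4 genes whose levels varied together across the arrays are shown because they stand for successive positions in the clusters. Of the 39 genes, 22 had an entry in the RefSeq promoter table of GRCm38.p6. Each line is the 250 bases just before a RefSeq start site, and capitals mark every match, on either strand, to CCAAT (the CCAAT box), TATAAA (the TATA box), TGATNNAT (the joint Hox and Pbx site) or CACGTG (the E box).
Hoxa2, chr6:52164832-52165081, minus strand: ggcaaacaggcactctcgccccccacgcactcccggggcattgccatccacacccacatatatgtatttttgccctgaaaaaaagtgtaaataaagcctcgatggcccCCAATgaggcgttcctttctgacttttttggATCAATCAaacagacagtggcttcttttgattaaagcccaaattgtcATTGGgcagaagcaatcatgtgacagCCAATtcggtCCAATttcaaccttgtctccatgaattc
Hoxb4, chr11:96318017-96318266, plus strand: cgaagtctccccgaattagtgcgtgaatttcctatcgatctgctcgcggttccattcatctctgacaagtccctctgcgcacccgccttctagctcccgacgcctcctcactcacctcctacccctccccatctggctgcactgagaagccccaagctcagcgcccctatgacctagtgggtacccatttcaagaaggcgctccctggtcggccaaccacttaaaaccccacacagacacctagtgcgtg
Hoxa5, chr6:52204588-52204837, minus strand: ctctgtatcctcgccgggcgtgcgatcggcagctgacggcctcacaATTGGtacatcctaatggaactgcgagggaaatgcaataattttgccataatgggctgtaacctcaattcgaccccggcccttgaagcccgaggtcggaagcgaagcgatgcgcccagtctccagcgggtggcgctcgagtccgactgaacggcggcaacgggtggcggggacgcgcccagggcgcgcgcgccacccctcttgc
Hoxb8, chr11:96281655-96281904, plus strand: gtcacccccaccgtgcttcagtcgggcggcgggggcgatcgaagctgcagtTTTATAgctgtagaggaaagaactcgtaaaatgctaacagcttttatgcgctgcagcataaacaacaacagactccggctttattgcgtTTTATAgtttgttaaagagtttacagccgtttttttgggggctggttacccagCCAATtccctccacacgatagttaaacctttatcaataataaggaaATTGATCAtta
The Hoxa2 window held 4 CCAAT matches and 1 TGATNNAT match, and the Hoxb8 window 1 CCAAT, 2 TATAAA and 1 TGATNNAT match. The Hoxa5 window held 1 CCAAT match and the Hoxb4 window none of the 4 motifs, and no match overlapped another. Over all 22 Hox promoters, 13 (59.1%) held CCAAT against 34.5% of the 27025 promoters in the table. TATAAA, TGATNNAT and CACGTG were each in 3 of the 22 (13.6%), against 12.97%, 7.91% and 6.05% of all promoters. The median number of CG dinucleotides was 12 in the Hox windows and 6 in all. A match describes letters in the window and does not show that a factor binds there.

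Levels are given as log2 of the scanner's processed signal minus the 75th percentile of the same array, so 0 is that percentile. A spot was counted as detected where the scanner software marked it well above background, and elsewhere a value is only an upper bound. On each array 59.9% to 66.1% of spots were well above background, and the number of arrays limits the precision. Levels of different probes are not set against each other, since probes differ in how brightly they bind. A whole brain mixes many cell types, so fewer cells of a type and less RNA per cell cannot be told apart.

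Hox genes of higher paralog number were detected on fewer arrays. With any probe of a gene counted, 1 gene was well above background on all 16 arrays, 17 on 8 to 15, 6 on 1 to 7 and 15 on none. Hoxb3 was detected on 16 arrays, and Hoxa2, Hoxb2, Hoxa3 and Hoxd3 on 13 each, while Hoxb1 and Hoxd1 were detected on 0. All 7 genes of paralogs 4 and 5 were detected, Hoxb4 and Hoxc4 on 13 arrays and Hoxa4, Hoxd4, Hoxa5, Hoxb5 and Hoxc5 on 12. Among paralogs 6 to 8, Hoxb6, Hoxb7 and Hoxb8 were detected on 11 arrays, Hoxc6 on 10, Hoxa7 on 8, Hoxd8 on 6, and Hoxa6 and Hoxc8 on 0. Of the 16 genes of paralogs 9 to 13, Hoxa9 was detected on 5 arrays, Hoxb9, Hoxc11, Hoxc12 and Hoxd13 on 1 array each, and the other 11 on none.

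The number of the 39 genes detected differed widely between animals of 1 group. It was 20, 4, 19 and 19 on fresh 1 to 4, and 17, 9, 20 and 18 on freeze-dried 1 to 4. It was 13, 17, 20 and 18 on irradiated 1 to 4, and 18, 1, 20 and 2 on heated 1 to 4. Fresh 2, freeze-dried 2, heated 2 and heated 4 had the lowest counts, and the other 12 arrays held at least 13 genes. The ranges of the 4 groups overlapped. On heated 2 the gene detected was Hoxb3.

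**Figure D1:**
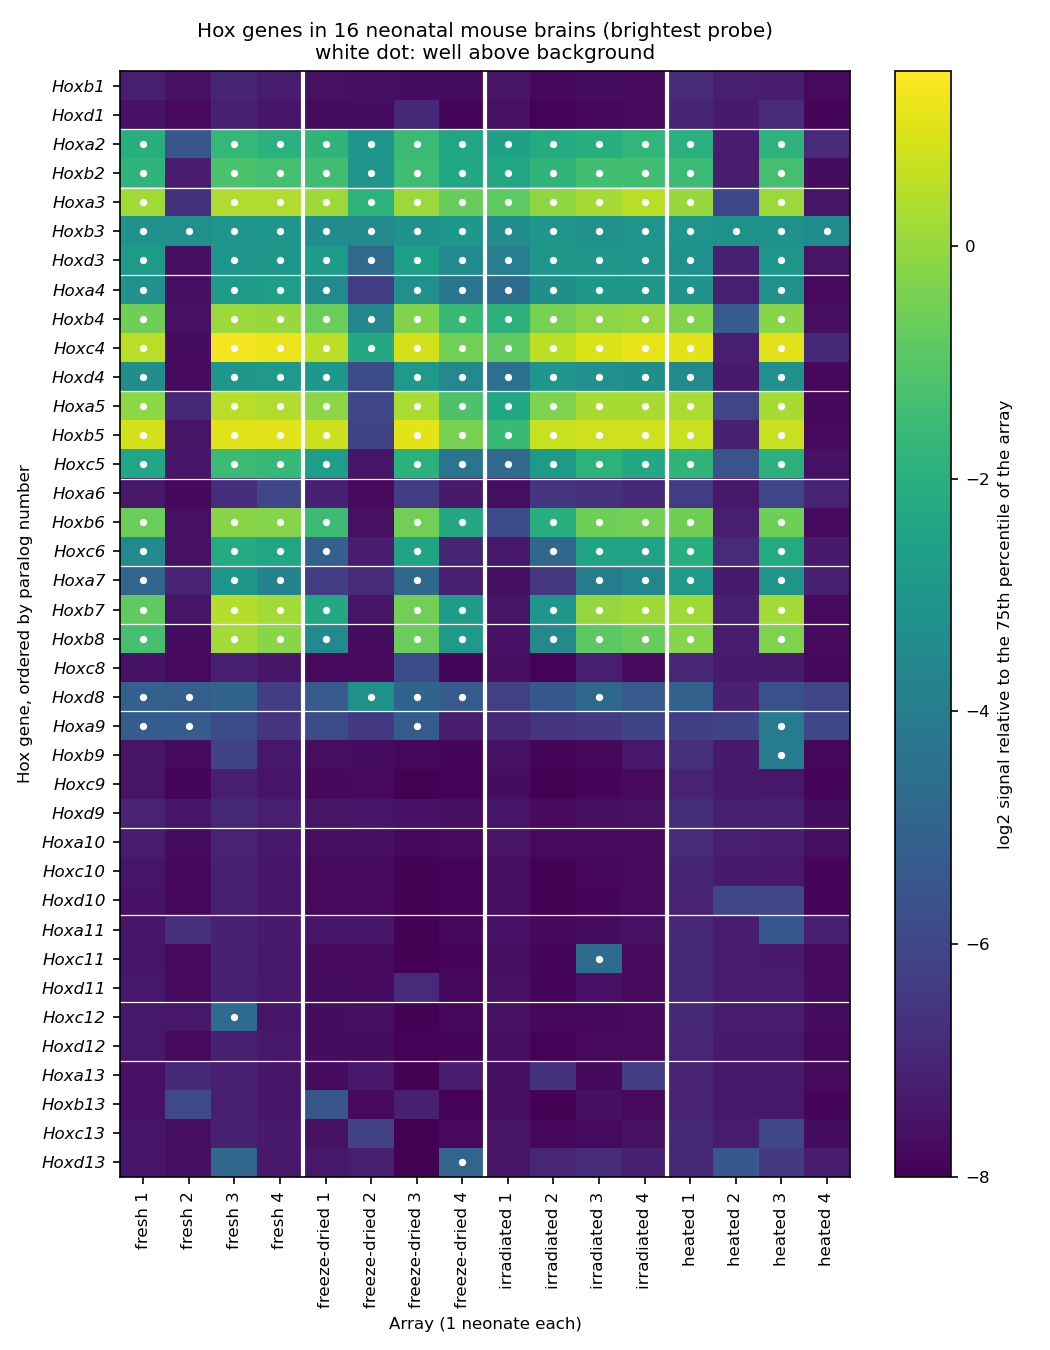
Log2 level of the brightest probe of each Hox gene reported here (rows, by paralog number) on the 16 arrays (columns, by group), relative to the 75th percentile of the array, with a white dot where the probe was well above background. Fresh 2, heated 2 and heated 4 are dark in nearly all rows, freeze-dried 2 and irradiated 1 darken down the rows, and rows from paralog 9 on are dark on nearly all arrays.

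Hoxb2, a hindbrain gene of facial motor neurons, was at -1.77, -7.29, -1.18 and -1.34 on fresh 1 to 4 in that order, as for the other groups and genes, and -1.41, -3.06, -1.46 and -2.29 on the freeze-dried. It was at -2.35, -1.80, -1.38 and -1.38 on the irradiated arrays and -1.53, -7.27, -1.31 and -7.70 on the heated. Fresh 2, heated 2 and heated 4 were not above background for Hoxb2, and freeze-dried 2 was the lowest of the rest. Hoxa2, which sets the identity of the anterior hindbrain, was at -2.04, -5.46, -1.68 and -1.92 on the fresh arrays and -1.78, -3.02, -1.52 and -2.37 on the freeze-dried. It was at -2.56, -2.15, -2.05 and -1.73 on the irradiated arrays and -1.97, -7.27, -1.87 and -6.87 on the heated. The same 3 arrays were the ones not above background.

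Hoxa3, active in the caudal hindbrain and in neck organs, was at 0.20, -6.59, 0.36 and 0.38 on the fresh arrays and 0.13, -1.87, 0.08 and -0.72 on the freeze-dried. It was at -0.84, -0.07, 0.22 and 0.52 on the irradiated arrays and 0.05, -5.94, 0.07 and -7.50 on the heated. Its second probe was also lowest on fresh 2, heated 2, heated 4 and freeze-dried 2. Hoxb3 had 2 probes that did not follow each other. The brighter by mean level lay between -3.48 and -2.92 on all 16 arrays, a range of 0.57. The other was at -1.94, -6.06, -1.83 and -1.88 on the fresh arrays, -2.36, -5.48, -2.16 and -3.08 on the freeze-dried, -4.38, -2.64, -2.10 and -2.28 on the irradiated, and -1.95, -5.60, -2.10 and -6.18 on the heated. That second probe was above background on 12 arrays and was low on the arrays where Hoxa3 was low, so the detection of Hoxb3 on all 16 arrays rests on the first probe alone.

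Hoxc4 and Hoxb4 belong to the paralog group whose activity begins in the caudal hindbrain. Hoxc4 was at 0.53, -7.68, 1.34 and 1.21 on the fresh arrays and 0.57, -2.25, 0.89 and -0.51 on the freeze-dried. It was at -0.83, 0.56, 0.98 and 1.17 on the irradiated arrays and 1.11, -7.21, 1.09 and -6.96 on the heated. The values on fresh 2, heated 2 and heated 4 were background, and freeze-dried 2 and irradiated 1 were the lowest of the detected ones. Hoxb4 had a lowest, median and highest level of -7.61, -0.50 and 0.07 over the 16 arrays. Hoxb5, a gene of the caudal medulla and upper cord, was at 0.87, -7.49, 1.02 and 1.09 on the fresh arrays and 0.79, -6.05, 1.12 and -0.41 on the freeze-dried. It was at -1.61, 0.72, 0.82 and 0.82 on the irradiated arrays and 0.69, -7.17, 0.69 and -7.75 on the heated. For Hoxb5 freeze-dried 2 had joined the arrays without a detected signal. Hoxc5, known from motor neurons of the neck such as those to the diaphragm, was at -2.43, -7.42, -1.51 and -1.65 on the fresh arrays and -2.69, -7.42, -1.91 and -4.33 on the freeze-dried. It was at -4.70, -2.81, -1.85 and -2.28 on the irradiated arrays and -1.78, -5.56, -1.88 and -7.54 on the heated. The same 4 arrays were not above background.

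Hoxb6, Hoxb7 and Hoxb8 pattern the spinal cord and trunk. Hoxb6 was at -0.63, -7.59, -0.17 and -0.22 on the fresh arrays and -1.49, -7.58, -0.52 and -2.27 on the freeze-dried. It was at -5.86, -2.06, -0.61 and -0.50 on the irradiated arrays and -0.55, -7.21, -0.58 and -7.73 on the heated. Irradiated 1, which had a detected level for all 7 genes of paralogs 4 and 5, was not above background for Hoxb6. Hoxb7 was at -0.82, -7.48, 0.44 and 0.18 on the fresh arrays and -2.26, -7.48, -0.52 and -2.74 on the freeze-dried. It was at -7.47, -3.02, 0.00 and 0.15 on the irradiated arrays and 0.15, -7.17, 0.19 and -7.74 on the heated. Again 5 arrays lacked a detected signal. Hoxb8 was at -1.32, -7.70, 0.17 and -0.17 on the fresh arrays and -3.48, -7.67, -0.68 and -2.89 on the freeze-dried. It was at -7.54, -3.53, -0.88 and -0.72 on the irradiated arrays and -0.22, -7.25, -0.33 and -7.73 on the heated, and its second probe was detected on the same number of arrays, 11.

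Hoxd8 did not follow this order. Its brighter probe was at -5.08, -5.13, -4.99 and -6.29 on the fresh arrays and -5.28, -3.24, -4.93 and -5.31 on the freeze-dried, and both of its probes were highest on freeze-dried 2, the other at -4.89. It ranged from -6.20 to -4.82 on the irradiated arrays and from -7.14 to -5.01 on the heated. On freeze-dried 2 the epidermal keratins Krt14 and Krt5 were at 2.49 and 2.33, against -3.73 to -3.06 and -7.31 to -5.09 on the other 15. The summed signal of the 7 skin marker genes measured was 113 there and 15.7 to 18.2 elsewhere, in multiples of the 75th percentile. Trp63, of the same list, was not high on freeze-dried 2, at 2.32 against 2.23 to 2.66 on the other 15. Whether skin RNA had a part in the Hoxd8 value was not tested.

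Genes of paralogs 9 to 13 are used in the lower trunk, limbs and tail. The brighter probe of Hoxa9 ranged from -7.27 to -4.03 with a median of -6.04, highest on heated 3, and its 2 probes disagreed, the other being detected on fresh 4 alone at -3.49. Its levels were -5.22, -5.25, -5.79 and -6.56 on the fresh arrays, -5.78, -6.38, -5.25 and -7.27 on the freeze-dried, -6.89, -6.56, -6.44 and -6.04 on the irradiated, and -6.22, -6.04, -4.03 and -5.95 on the heated. Fresh 1, fresh 2, freeze-dried 3 and heated 3 were above background for that probe. Hoxb9 was detected on heated 3 at -3.97, Hoxc11 on irradiated 3 at -4.64, Hoxc12 on fresh 3 at -4.67 and Hoxd13 on freeze-dried 4 at -4.89. These were single arrays, and no other gene of paralogs 10 to 13 rose above background with them. Hoxa10 was above background on 0 of 16 arrays, with levels from -7.79 to -6.87. On the other arrays Hoxc11 lay between -7.97 and -6.94, and Hoxc12 between -7.94 and -6.89. Hoxd13 was at -4.84 on fresh 3 and -5.43 on heated 2 without being well above background, and between -7.97 and -6.37 on the remaining 13 arrays.

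On arrays of intermediate Hox signal, and by smaller amounts on some others, the distance below a gene's own highest array grew with paralog number. For 16 genes detected on 8 to 15 arrays, each level was set against the gene's highest over the 16 arrays, and the medians of paralogs 2 and 3 (4 genes), 4 and 5 (7 genes) and 6 to 8 (5 genes) were compared. On freeze-dried 2 the medians were -1.99, -3.71 and -7.41, and on irradiated 1 they were -1.24, -2.17 and -5.69. On freeze-dried 4 they were -0.98, -1.65 and -3.17, on freeze-dried 1 -0.24, -0.70 and -3.04, and on irradiated 2 -0.60, -0.55 and -3.46. Of those 5 arrays, irradiated 2 alone had no step down between the first and second band. On freeze-dried 2 and irradiated 1 none of the 5 genes of paralogs 6 to 8 was well above background, so -7.41 and -5.69 are bounds. On freeze-dried 2 only 2 of the 7 genes of paralogs 4 and 5 were detected, so -3.71 rests partly on bounds. On fresh 1 the medians were -0.42, -0.62 and -1.44. Hoxb3 was left out for its steady probe. Its other probe, with a highest level of -1.83, was at -5.48 on freeze-dried 2, not above background, and -4.38 on irradiated 1. On both arrays that was further below its highest than the median of paralogs 2 and 3.

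Spearman's rho between paralog number and this distance, over the 16 genes of 1 array, was -0.91 on freeze-dried 2, -0.97 on irradiated 1, -0.84 on freeze-dried 4, -0.84 on freeze-dried 1, -0.74 on irradiated 2 and -0.65 on fresh 1. Of the arrays where distances were small, it was -0.66 on irradiated 4, -0.56 on freeze-dried 3, -0.55 on irradiated 3, -0.15 on fresh 4, 0.045 on heated 3, 0.36 on fresh 3 and 0.49 on heated 1. These are descriptions across genes that share an array and are not independent, and a gene near background can fall less far than a bright one. On freeze-dried 2 and irradiated 1 many of the values ranked are bounds. On fresh 2, heated 2 and heated 4 the medians of the 3 bands were -5.55, -7.43 and -7.41, -5.92, -5.35 and -7.03, and -5.93, -7.68 and -7.55, all of them bounds.

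**Figure D2:**
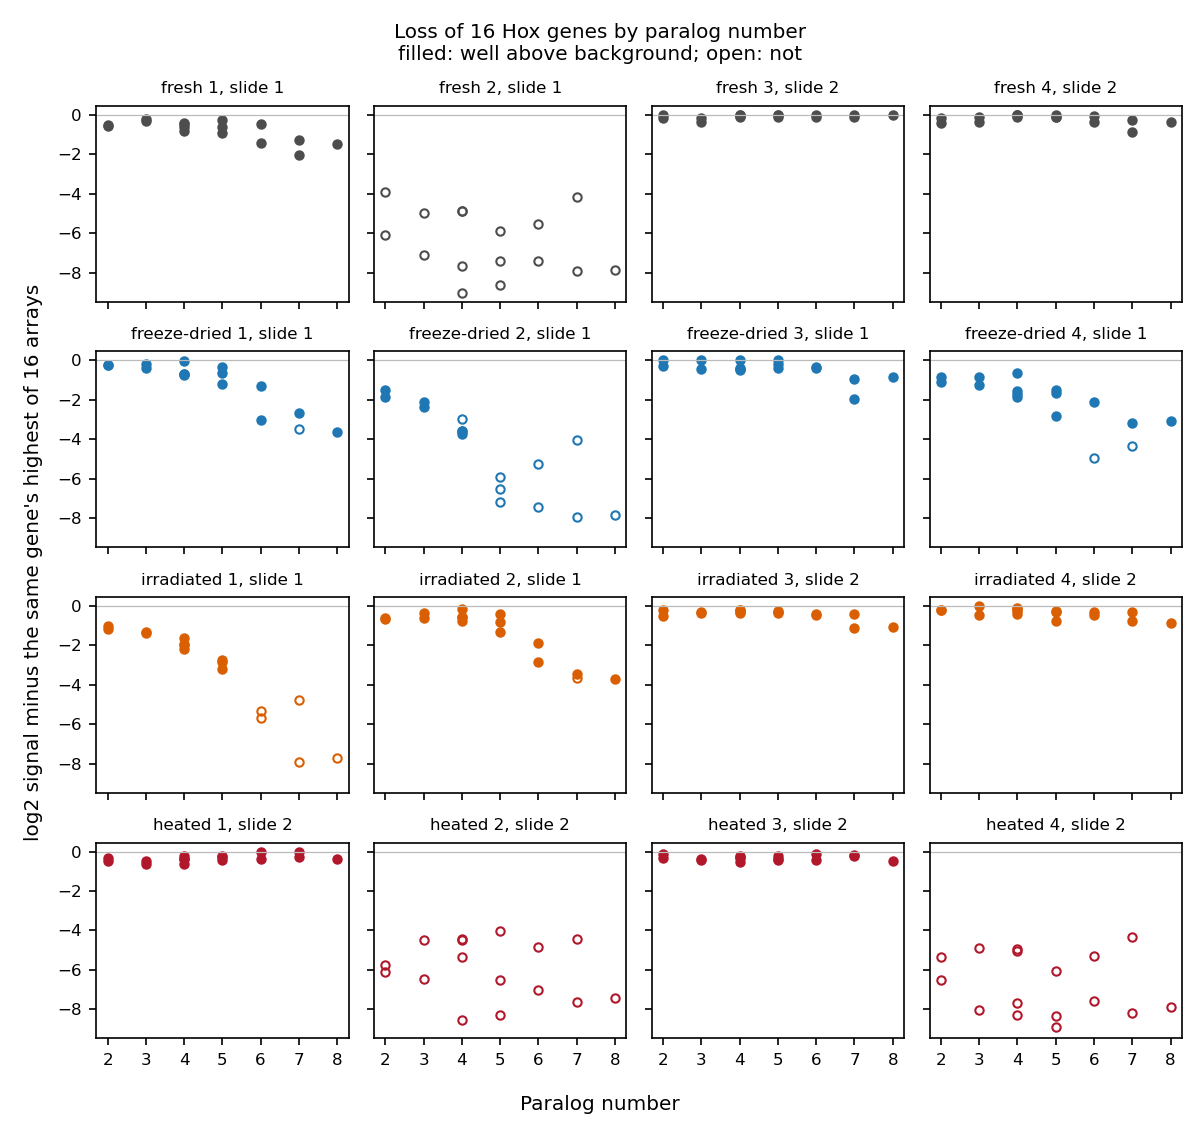
Log2 level of 16 Hox genes minus the same gene's highest of the 16 arrays (vertical axis) against paralog number (horizontal axis), 1 panel for each array, with filled points well above background and open points not. Points fall away with paralog number on freeze-dried 1, 2 and 4 and irradiated 1 and 2, and lie near 0 at all numbers on fresh 3, fresh 4, irradiated 3 and 4, and heated 1 and 3.

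Arrays were on 2 slides, per the file headers, and the spread of Hox levels differed between them. The 4 freeze-dried arrays shared slide 1 with fresh 1 and 2 and irradiated 1 and 2. The 4 heated arrays were on slide 2, along with the remaining fresh and irradiated ones. Leaving out the 4 arrays with the fewest Hox genes, each slide had 6 arrays, over which the range of the 16 genes was 0.27 to 1.13 on slide 2, with a median of 0.44. On slide 1 it was 0.94 to 6.95, with a median of 2.17. Heated and freeze-dried animals were never on a common slide, so that comparison can be adjusted for slide only through the fresh and irradiated animals, which were on both. The split by number of genes was made on these values, so the difference in range is a description.

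No Hox gene passed the test for a difference between treatments. A probe entered the fit if some group had it well above background on each of its 4 arrays, which left 13 of the 39 members. Hoxa4, Hoxa5, Hoxb5, Hoxc5 and Hoxd4 entered through the irradiated group alone. All 16 arrays were fitted with limma over 26477 genes and features, with two-sided tests and Benjamini-Hochberg adjustment over all of them. Of the 13 members, 0 passed an adjusted p of 0.05 in each of the 6 comparisons, and 0 had an unadjusted p under 0.05 in any. Over all 26477 genes and features, an unadjusted p under 0.05 was least frequent in irradiated against freeze-dried, with 1912. It was most frequent in heated against freeze-dried, with 6311.

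The share of all genes called was 0% for freeze-dried against fresh, 0% for irradiated against freeze-dried, 3.86% for heated against freeze-dried and 1.37% for irradiated against fresh. It was 2.93% for heated against fresh, 1.01% for heated against irradiated and 3.2% for the F test over the 4 groups, in which 0 of 13 members passed. In none of the 6 comparisons did the 4 arrays of a group lie wholly above or below the 4 of the other for a tested member. Over all genes that happened for 4.16%, 4.61%, 20.3%, 9.09%, 11.3% and 13.1% in the same order. With so few members, 0 of 13 does not stand apart from these shares.

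The differences were large, so were their errors, and their direction depended on the filter. For heated minus freeze-dried the median over the 13 members was -1.80, from -2.74 to 0.05, beside 0.02 over all genes, and the median standard error was 1.52. It was -2.37 for heated minus irradiated and -1.34 for heated minus fresh. Of the 13, Hoxb3 alone was detected on all 4 heated arrays, and all 13 were detected on all 4 irradiated arrays, so members were kept for being high outside the heated group and these medians support no direction. Over all 39 members without a filter, most of them at background, the medians were 0.21, -0.029 and -0.40 in the same order. For freeze-dried minus fresh the median was 0.43 with the filter and -0.24 without, and for irradiated minus fresh 0.87 and -0.26. Most members were likewise kept for being detected outside the fresh group, so these medians support no direction either.

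The member with the smallest p for heated against freeze-dried was Hoxa2, at -4.50 ± 2.98 (SD, n = 4) in the heated and -2.17 ± 0.67 (SD, n = 4) in the freeze-dried group. The difference was -2.32 with a standard error of 1.16 (limma, adjusted p = 0.237). Hoxa2 was also the member with the smallest p for heated against irradiated, where the irradiated mean was -2.12 ± 0.34 (SD, n = 4) and the difference -2.37 (limma, adjusted p = 0.387). The heated values of Hoxa2 fell into 2 near the other groups and 2 at background, as printed above. For irradiated against fresh it was Hoxa3, -0.04 ± 0.58 against -1.41 ± 3.45 (SD, n = 4 each), a difference of 1.37 (limma, adjusted p = 0.747), and without fresh 2 that difference was -0.35. For irradiated against freeze-dried it was Hoxc5, a difference of 1.18 with a standard error of 1.58, given as a description since Hoxc5 was kept through the irradiated group alone. With slide as a block the Hoxc5 difference was -0.08. For freeze-dried against fresh it was the steady Hoxb3 probe, a difference of -0.13 with a standard error of 0.12 (limma, adjusted p = 0.724).

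**Figure D3:**
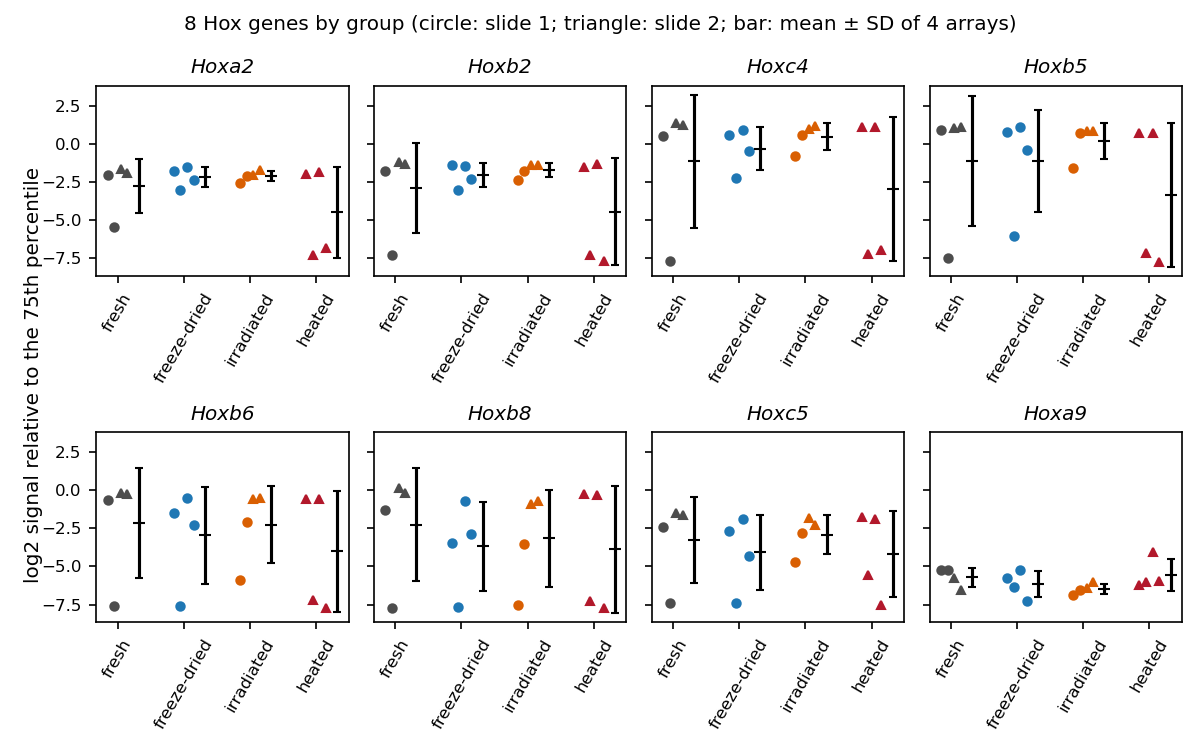
Log2 level relative to the 75th percentile of the array (vertical axis) of 8 Hox genes in the 4 groups, with 1 point for each array (circles slide 1, triangles slide 2) and the mean ± SD of 4 arrays beside the points. The heated group splits into 2 arrays near the other groups' upper values and 2 low ones for all genes shown but Hoxa9, and the SD bars of the groups overlap.

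Leaving out fresh 2, freeze-dried 2, heated 2 and heated 4, a choice made after seeing the data, left 18 members in the fit and 0 called. The median difference over those members was then 0.55 for heated minus freeze-dried, 0.57 for heated minus irradiated and -0.07 for heated minus fresh, against -1.80, -2.37 and -1.34 with all arrays. It was -0.67 for freeze-dried minus fresh and -0.67 for irradiated minus fresh, over members kept by the same kind of filter. The arrays left out were picked by these same Hox values, and heated 2 and heated 4 were among them. A rise in the heated medians was thus built in, and the medians of this fit support no direction. The share of all genes called in that fit was 0% in the 3 comparisons among fresh, freeze-dried and irradiated animals, 0.0783% for heated against freeze-dried, 0.0485% for heated against fresh, 0.097% for heated against irradiated and 0.00746% for the F test.

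With slide as a block 0 of 13 were called, beside 0.00378%, 0%, 0%, 2.46%, 1.53% and 0.684% of all genes in the order of comparisons used above and 1.21% in the F test. Of these members, kept by the same filter, 1 had an unadjusted p under 0.05 in heated against freeze-dried and 3 in heated against irradiated. Over all 26477 genes and features, 2102 and 3222 did. In that fit the heated minus freeze-dried median was -3.53 with a median standard error of 2.10. Within slide 2 the 2 fresh and 4 heated arrays differed by a median of -2.69. Within slide 1 the 2 fresh and 4 freeze-dried arrays differed by a median of 1.78. The median standard error was 1.84 in each, with 0 members called in either. Members were kept mostly through the freeze-dried and irradiated groups. Fresh 2, with 4 Hox genes detected, was 1 of the 2 fresh arrays on slide 1. These medians, like the -3.53, therefore support no direction. Within slide 1 the share of all genes called was 0% for freeze-dried against fresh, 0% for irradiated against freeze-dried and 1.56% for irradiated against fresh. Within slide 2 it was 0.00378% for irradiated against fresh, 0.068% for heated against fresh and 0.219% for heated against irradiated, and 0 members were called in any of these. Without a detection filter all 39 members were tested and 0 were called. Of all genes, 0%, 0%, 1.34%, 0.156%, 0.585% and 0.208% were called in the order of comparisons used above, and 0.452% in the F test. An unadjusted p under 0.05 was met by 7, 0, 9, 4, 1 and 9 of the 39 members. Over all 45616 genes and features it was met by 7263, 2226, 12570, 7596, 5259 and 9830 in the same order. The smallest adjusted p there was 0.0858, for Hoxd10 in heated against freeze-dried, a gene above background on 0 arrays.

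The TALE cofactors, and the Polycomb and Trithorax genes below, were measured far more tightly. That did not hold for every noncoding RNA of the clusters, with Hoxaas3 ranging from -7.12 to -3.85. Of the 9 TALE cofactor genes, 2 fell and 0 rose in heated against freeze-dried brains, beside 3.86% of all genes, and the median difference of the list was -0.15. Pbx3, whose protein binds DNA beside Hox proteins, fell by 0.26 from 3.92 ± 0.07 to 3.66 ± 0.05 (SD, n = 4 each; limma, adjusted p = 0.0228). Pknox1, which encodes another TALE partner, fell by 0.18 (limma, adjusted p = 0.0452). In the other 5 comparisons 0 of the 9 were called, beside 0%, 0%, 1.37%, 2.93% and 1.01% of all genes in the order used above. With slide as a block 0 of 26477 genes were called in heated against freeze-dried, so every call of that comparison named here was lost.

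Of 26 Polycomb and Trithorax genes, which keep Hox genes off or on, 3 rose and 4 fell in heated against freeze-dried brains, beside 3.86% of all genes. The 3 that rose were Cbx6 by 0.33, Cbx7 by 0.55 and Kdm6a by 0.37 (limma, adjusted p = 0.0261, 0.0357 and 0.0457). Cbx6 and Cbx7 encode Polycomb chromobox proteins, and Kdm6a a demethylase that removes the Polycomb mark. Ezh2, the Polycomb methyltransferase, fell by 0.33, Rbbp4 by 0.32, Cbx2 by 0.29 and Rnf2, a ubiquitin ligase of Polycomb, by 0.44 (limma, adjusted p = 0.0253, 0.0281, 0.0404 and 0.0416). The list median was 0.03. Against fresh brains 2 of the 26 fell in the heated group, beside 2.93% of all genes, Ezh2 by 0.29 and Cbx2 by 0.40 (limma, adjusted p = 0.0399 and 0.0122). With slide as a block the Cbx2 call against fresh held (limma, adjusted p = 0.0384) and the Ezh2 call did not (limma, adjusted p = 0.0655). Pcgf2, 1 of the 26, fell by 0.28 in irradiated against fresh (limma, adjusted p = 0.0412), beside 1.37% of all genes, and held with the block (limma, adjusted p = 0.0323). Cbx2 and Ezh2 also passed the F test over the groups (limma, adjusted p = 0.0315 and 0.0462), beside 3.2% of all genes, and neither did with slide as a block (limma, adjusted p = 0.101 and 0.127). Without the 4 arrays with the fewest Hox genes, 0 of the calls named in these paragraphs on lists remained.

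Of 15 genes of retinoic acid synthesis, breakdown and reception, 1 rose in heated against freeze-dried brains, Aldh1a3, a retinaldehyde dehydrogenase, by 0.47 (limma, adjusted p = 0.0478), a share near the 3.86% of all genes. With slide as a block its difference was 0.10. Of the 4 upstream regulators and 4 noncoding RNAs of the clusters tested, 0 were called in any comparison, beside 0% to 3.86% of all genes. Their lowest adjusted p-values were 0.091 and 0.496 by limma. The members of these lists with the smallest F-test values were Egr2 and Gbx2, Mira and Hoxaas3, and, for retinoic acid, Aldh1a3 and Aldh1a2, with adjusted p-values of 0.148, 0.201, 0.573, 0.602, 0.139 and 0.21 (limma). Of 11 genes beside the clusters, Calcoco1, next to Hoxc, fell by 0.34 in irradiated against fresh (limma, adjusted p = 0.0381), beside 1.37% of all genes. Ttll6, next to Hoxb, rose by 0.76 in heated against fresh (limma, adjusted p = 0.0262), beside 2.93%. Both held with slide as a block (limma, adjusted p = 0.0291 and 0.0339).

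Some genes outside the Hox families were low on the arrays that were low for Hox genes. Meis1, a TALE cofactor, was at 2.24 on fresh 2, 1.87 on heated 2 and 1.93 on heated 4, and between 2.57 and 3.07 on the other 13 arrays. Evx1, the homeobox gene at the end of the Hoxa cluster, was at -2.65, -2.76 and -3.36 on those 3 arrays and -2.48 on freeze-dried 2, with -2.32 to -1.58 on the rest. Skap2, on the far side of the same cluster, was at -0.46, -0.43 and -0.44 on the 3 arrays and -0.11 to 0.23 elsewhere. Hoxaas3, an antisense RNA of the Hoxa cluster, was at -6.45 on fresh 2, -6.31 on freeze-dried 2, -6.77 on heated 2 and -7.12 on heated 4, and between -5.29 and -3.85 elsewhere. Strand is set by the probe, but how far its signal is separate from that of the genes opposite it is not known here.

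Some markers of the hindbrain that are not Hox genes were low on these arrays too, and others were not. Phox2a, which marks noradrenergic and cranial motor neurons, was at -2.66 on fresh 2, -6.65 on heated 2 and -2.50 on heated 4, and between -2.03 and -1.07 on the other 13, lowest of those on freeze-dried 2. The summed signal of 9 hindbrain genes was 3.05 to 4.70 over the fresh arrays, 2.97 to 4.31 over the freeze-dried, 4.24 to 4.76 over the irradiated and 1.92 to 4.41 over the heated. Prph, a filament of motor and sensory neurons, was at -1.90, -2.25 and -1.93 on fresh 2, heated 2 and heated 4 and -0.54 to -0.01 elsewhere. The 6 motor neuron genes summed to 2.71, 2.49 and 2.61 on those arrays and to 3.52 to 3.98 on the others. Of that list, Chat, Slc5a7 and Slc18a3 were also lowest on those arrays. Isl1 was not, at 0.80, 0.60 and 0.63 there and 0.22 to 0.94 elsewhere, and Mnx1 was detected on 0 arrays. Egr2, a hindbrain segment gene of the embryo, was at its lowest on fresh 2 (-2.94) but at -1.57 and -1.99 on heated 2 and heated 4, against -2.39 to -1.44 elsewhere. Dbh and Slc6a2, also of the 9 hindbrain genes, were low on heated 2 alone, at -4.13 and -3.90. On fresh 2 and heated 4 Dbh was at -0.23 and -0.20, within the -0.35 to 0.05 of the remaining arrays. Slc6a2 was at -1.38 and -1.40 there, within -1.56 to -1.27. Tlx3 was detected on 0 arrays, and Lbx1 and Slc6a5 on 1 each.

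Of the regions further forward, the cerebellar and raphe sums were low on fewer arrays, and the midbrain sum was low on none of them. The 6 midbrain genes summed to 2.29, 2.36, 2.37 and 2.40 on fresh 2, freeze-dried 2, heated 2 and heated 4. On the other 12 arrays they summed to 1.86 to 2.39. Pcp2, a Purkinje cell gene, was at -2.55 on heated 2 and -3.73 on heated 4, and between 0.81 and 1.24 on the other 14, fresh 2 among them at 0.98. Gabra6, a granule cell gene of the same list, was detected on 2 arrays only and was highest on heated 2, at -3.36. The 8 cerebellar genes summed to 11.8 and 13.4 on those 2 heated arrays and to 18.0 to 21.2 on the others. Tph2, of serotonin neurons, was at -4.26 on heated 2 and -2.54 to -2.06 elsewhere, and the 3 raphe genes summed to 0.613 there and to 1.01 to 1.64 elsewhere. The 9 forebrain genes, which mark tissue without Hox expression, summed to 116 on fresh 2, 113 on freeze-dried 2, 118 on heated 2 and 120 on heated 4, and to 93.5 to 109 on the other 12. The part that the share of hindbrain tissue had in the Hox values was not tested.

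Markers of other tissues were high on other arrays. The 7 skeletal muscle genes summed to 12.7 on fresh 1 and 1.17 to 1.65 elsewhere, and the 8 pituitary genes to 16.7, 13.8 and 17.2 on fresh 3, freeze-dried 1 and heated 1 and 0.621 to 1.01 elsewhere. Midbrain genes summed to 1.86 to 2.40, cartilage and bone genes to 0.769 to 1.03, and blood cell genes to 188 to 271. Of the marker lists, 1 of 7 cerebellar genes, En2, fell by 0.57 in heated against freeze-dried (limma, adjusted p = 0.036), beside 3.86% of all genes. Col2a1, 1 of 3 cartilage and bone genes, fell by 0.40 in the same comparison and by 0.42 against fresh (limma, adjusted p = 0.0189 and 0.0143). Actn3, 1 of 6 muscle genes, fell by 0.59 in heated against fresh (limma, adjusted p = 0.0284), the group that holds fresh 1, beside 2.93% of all genes. With slide as a block the Actn3 call was lost (limma, adjusted p = 0.0821) and the Col2a1 call against fresh held (limma, adjusted p = 0.0456). In lists this short 1 call does not stand apart from those shares. In the hindbrain, motor neuron, raphe, midbrain, forebrain, pituitary, skin and blood lists 0 genes were called in any comparison. The share of all genes called ran from 0% to 3.86% over the comparisons.

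**Figure D4:**
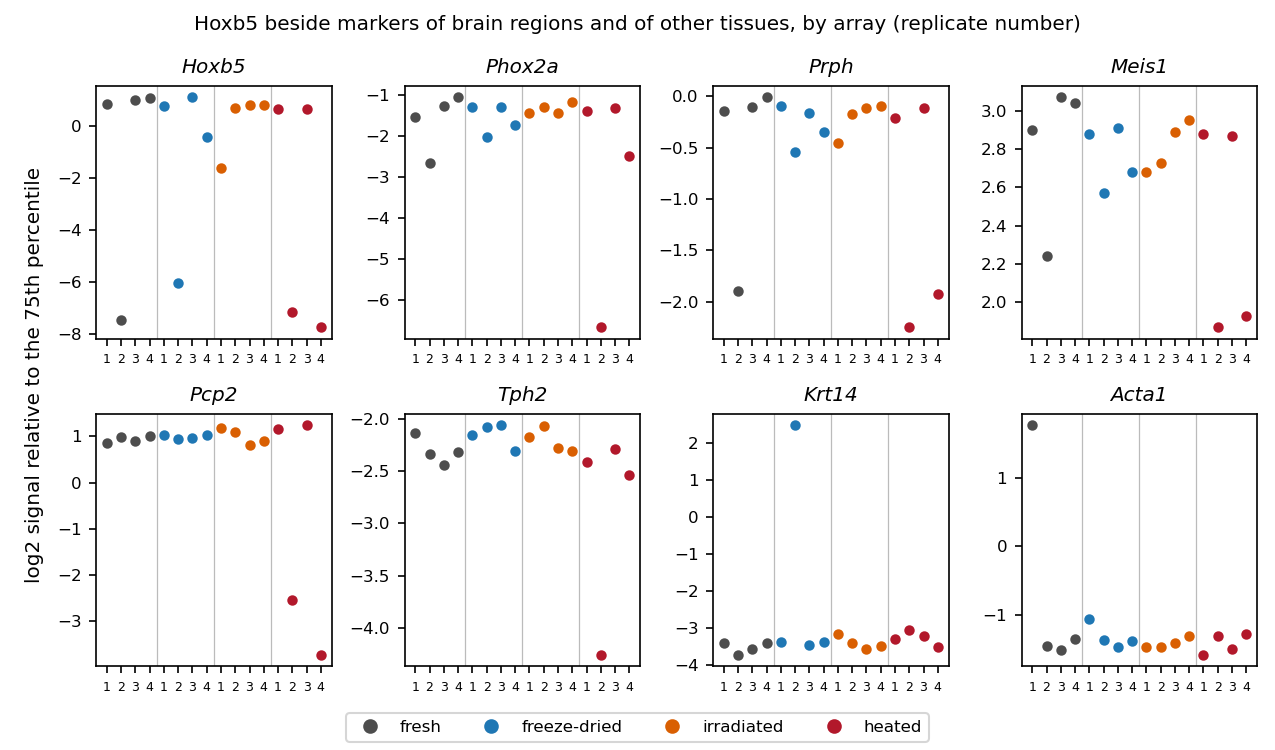
Log2 level relative to the 75th percentile of the array (vertical axes, a scale for each panel) of Hoxb5, the hindbrain and motor genes Phox2a and Prph, the cofactor Meis1, the cerebellar gene Pcp2, the serotonin gene Tph2, the skin keratin Krt14 and the muscle actin Acta1 on the 16 arrays (horizontal axis, replicate number within each coloured group). Fresh 2, heated 2 and heated 4 are low for Hoxb5, Phox2a, Prph and Meis1, Pcp2 is low on heated 2 and 4 alone, Tph2 on heated 2 alone, Krt14 is high on freeze-dried 2 alone and Acta1 on fresh 1 alone.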

How the data were processed

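Single-colour Agilent arrays of 16 neonatal brains were scanned and read by the authors with Agilent Feature Extraction, version 11.0.1.1, as the submitters' processing notes state. Each deposited scanner output gives every spot's fluorescence intensity (the processed signal, background-subtracted, per the file headers) with quality flags. The authors' deposited log2 values cover 31313 probes, a single one of them for a Hox gene, and served as an alternative only, as how they were made is not given in the sources used here.

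Here 3671 control spots of 62976 were removed, outlier spots dropped (50 probe values) and repeated spots averaged. Each array's log2 signal was scaled to its 75th percentile. Probes were tested if well above background on all 4 arrays of a group, and the probe with the highest mean stood for its gene. Models were fitted with limma 3.58.1 in R 4.3.3 (12 residual degrees of freedom; data.table, version 1.17.8), and tables and plots made with Python 3.11.15, pandas 2.3.3, scipy 1.17.1 and matplotlib 3.10.9. Tested on simulated data for heated against freeze-dried over 26477 genes, the fit recovered 89 of 100 genes changed by 1 on the log2 scale and 95 of 100 changed by 2, with 9 false calls; the Hox genes vary far more than most genes. Marker and pathway lists were written from general knowledge, and summed signals are linear, relative to the percentile.

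Genes with values on every array are the most widely detected member of each paralog number and the member with the smallest p in each comparison; of other lists, the genes called and those with the smallest F-test p. Other genes singled out (Hoxb4, Hoxd8, the region and tissue markers and the genes low on the same arrays) were chosen after their values were seen, and some genes are not reported here. Members and lists were chosen with earlier results of these data known. Alternatives were quantile normalization, normexp background correction (offset 50, on median signals), other filters, every probe on its own, slide and replicate blocks, the authors' values, and arrays left out. Neonates of a number in different groups are different animals. The correlation of their deviations over 24 pairs ran from -0.39 to 0.38, and 10 pairs were above 0.1. This spread cannot settle whether a number stands for anything shared. In the fresh and irradiated groups the number also went with the slide.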

Additional observations from a re-analysis of the deposited data

Results flagged for a closer look

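In each group of 4 arrays, a sample was picked out where its gap to the nearest other was above Dixon's 95% critical share of the group's range, which chance meets in about 1 in 20 groups. It was met in 14 of the 60 groups tested over 15 Hox genes, and genes of 1 array are not independent of each other.

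Fresh 2 stood far below the other fresh arrays for 8 genes. Its log2 levels relative to the 75th percentile were -5.46 for Hoxa2, -7.29 for Hoxb2, -6.59 for Hoxa3, -7.68 for Hoxc4, -7.49 for Hoxb5, -7.42 for Hoxc5, -7.59 for Hoxb6 and -7.48 for Hoxb7, none of them well above background. Irradiated 1 stood below the other irradiated arrays for Hoxb5, at -1.61 and well above background, and above them for Hoxa10, at -7.51 and at background. Heated 3 stood above the other heated arrays for Hoxa9, at -4.03. Irradiated 3 stood above its group for Hoxc11, at -4.64, and fresh 3 above its group for Hoxc12, at -4.67, each well above background on that array alone. Fresh 3 also stood above its group for Hoxd13, at -4.84, without being well above background. Heated 2 and heated 4 were not picked out for the genes low on both, since a pair of low arrays leaves no single one apart.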

How the results depend on the processing

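The count of Hox genes called was 0 under every alternative run that had a Hox gene to test, in all 6 comparisons and the F test, and with any single array left out. In the deposited value table and with detection required on all 16 arrays, Hoxb3 was the only Hox gene tested, so those choices give no difference for the other named genes. Depth is not given by an array, and the spread between animals limits these tests: the median standard error of a Hox difference was 1.52. Of the differences for the genes of smallest p, 117 alternative values kept their sign or side and 5 reversed: Hoxb3 in freeze-dried minus fresh was 0.40 without freeze-dried replicate 2, where the other Hoxb3 probe became the brighter, Hoxc5 in irradiated minus freeze-dried was -0.081 with the slide block, Hoxa3 in irradiated minus fresh was -0.35 without fresh replicate 2 and also -0.35 without the 4 arrays with few Hox genes, and Hoxa2 in heated minus irradiated was 0.20 without those 4. The 4 arrays were picked by their Hox values, so the values without them support no direction. With 1 array left out, Hoxb3 ran from -1.39 to 0.40, Hoxc5 from 0.07 to 1.90 and Hoxa3 from -0.35 to 1.97. The -1.39, without fresh replicate 2, also came from the other Hoxb3 probe and is no shift of the steady one. Hoxa2 ran from -3.20 to -1.40 in heated minus freeze-dried and from -3.25 to -1.45 in heated minus irradiated. The scanner's looser flag, positive and significant against background, gave 13 Hox genes on fresh 2, 24, 18, 26 and 23 on freeze-dried 1 to 4, 17, 23, 27 and 24 on irradiated 1 to 4, and 23, 10, 28 and 11 on heated 1 to 4, so that heated 2 and heated 4 moved from 1 and 2 to 10 and 11.

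Counts over all genes moved more, and the cause was not tested beyond what each choice changes. For freeze-dried against fresh, 0 calls became 1 with every probe on its own and 1 with the slide block. Heated against freeze-dried had 1021 calls, 609 without a filter, 0 with the slide block, 0 in the deposited value table and 21 without the 4 arrays. Irradiated against fresh had 364, with 209 after normexp, 71 without a filter, 651 with the slide block, 939 in the value table, 0 without the 4 arrays and 1 within slide 2. Heated against fresh had 775, with 506 after normexp, 267 without a filter, 406 with the slide block, 312 in the value table, 13 without the 4 arrays and 18 within slide 2. Heated against irradiated had 267, with 108 after normexp, 95 without a filter, 112 in the value table, 26 without the 4 arrays and 58 within slide 2. The F test had 847, with 206 without a filter, 320 with the slide block, 226 in the value table and 2 without the 4 arrays. Leaving out 1 array gave 0 to 4 calls in freeze-dried against fresh, 0 to 3 in irradiated against freeze-dried, 178 to 1553 in heated against freeze-dried and 54 to 541 in irradiated against fresh. It gave 252 to 1127 in heated against fresh, 47 to 398 in heated against irradiated and 165 to 876 in the F test. With the replicate block, heated against irradiated had 177 calls and 0 Hox calls; 3 of 16 arrays correlated best with an array of their own number, and the replicate block changed no other Hox call.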
